A study of Mus musculus with 16 samples.

Results

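The comparison described here set 2 libraries labelled MycER OHT against 2 labelled YAP2S OHT Y27, which is 4 of the 16 libraries of the series. The cells are mouse embryonic fibroblasts carrying MycER, a fusion of Myc to the hormone-binding part of the estrogen receptor that is activated with 4-hydroxytamoxifen (OHT), and total RNA was sequenced. The cells labelled YAP2S also carry an activated mutant of the co-activator YAP in which serines have been replaced. The libraries labelled MycER OHT are MycER cells with OHT at 400 nM. Those labelled YAP2S OHT Y27 are MycER cells with the YAP mutant, OHT at 400 nM and Y27632 (Y27) at 50 µM, an inhibitor of the kinase ROCK. As labelled, the pair thus differs in the mutant and in Y27 at once, and these 2 factors cannot be told apart. The comparison set beside it was of 2 libraries labelled YAP2S Y27 (mutant, Y27, no OHT) with 2 labelled MycER Y27 (no mutant, Y27, no OHT). The study describes such cells as starved of serum and subconfluent. The labels do not say whether the 2 libraries of a group came from separate cultures, nor how many clones a population holds, and the spread between them may be technical.

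YAP is a co-activator that binds TEAD transcription factors, and its best known fibroblast targets encode matricellular proteins such as Ctgf and Cyr61. The kinases Lats1 and Lats2 of the Hippo pathway phosphorylate YAP on serines and so keep it in the cytoplasm, and a YAP without those serines escapes this restraint. ROCK drives actomyosin contraction, and tension in the actin cytoskeleton is known to keep YAP in the nucleus. Myc is a transcription factor known for raising genes of ribosome biogenesis, nucleotide synthesis and the cell cycle.

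The pair was chosen by the measured levels of Bex1, Wnt7a and Ctgf, which are therefore given as a description with no test. Values are RPKM as deposited, reads of a gene scaled by its length and by the depth of the library. Bex1, a small adaptor protein gene best known in neurons, stood at 19.03 and 19.77 RPKM in the libraries labelled MycER OHT. It stood at 0.123 and 0.566 RPKM in YAP2S OHT Y27. Those low values rest on 1 and 5 reads, against 259 and 231 reads in MycER OHT. In the comparison without OHT, Bex1 stood at 16.16 and 20.02 RPKM in YAP2S Y27 and at 0 and 0.340 in MycER Y27. Untreated YAP2S held 15.97 and 16.10 RPKM of Bex1, and untreated MycER 0 and 0.490. Among the cells without OHT, then, Bex1 was high in the libraries labelled with the mutant, while in the pair it was high in the libraries labelled without it.

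Wnt7a, which encodes a secreted Wnt ligand, stood at 16.8 and 14.4 RPKM in MycER OHT and at 0.571 and 0.463 in YAP2S OHT Y27. It stood at 17.8 and 20.8 RPKM in YAP2S Y27 and at 0.501 and 0.525 in MycER Y27. Wnt7a, like Bex1, thus had the level of YAP2S Y27 in the libraries labelled MycER OHT. Ctgf, a textbook YAP-TEAD target, stood at 67.1 and 60.8 RPKM in MycER OHT and at 17.76 and 15.96 in YAP2S OHT Y27. It stood at 64.3 and 60.6 RPKM in YAP2S Y27 and at 11.3 and 14.0 in MycER Y27. Ctgf without Y27 and OHT was higher, at 171 and 139 RPKM in MycER and at 94.8 and 93.1 in YAP2S. The highest RPKM of any gene was 663 and 227 in these MycER libraries and 124 and 137 in these YAP2S libraries. That highest value was lower in deeper libraries, and the part of depth in these Ctgf levels was not tested. The libraries labelled MycER OHT, which by label received no Y27, sat at the Ctgf level of the mutant cells with Y27.

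These levels raise a doubt about the OHT labels. If the labels of OHT-treated libraries had been exchanged, the libraries labelled MycER OHT could be mutant cells with OHT and Y27, and those labelled YAP2S OHT Y27 could be MycER cells with both. The pair would then read as the effect of the YAP mutant with OHT and Y27 both present. The files hold no reads of the transgenes that would settle it, Yap1 itself was at 27.9 and 25.0 RPKM in MycER OHT and at 30.6 and 22.5 in YAP2S OHT Y27, and an exchange was not tested. Esr1, which encodes the estrogen receptor, was at 0.963 and 0.934 RPKM in MycER OHT and at 1.16 and 0.804 in YAP2S OHT Y27. Both genes overlapped between the groups. Directions are given below by label, with the labelled MycER OHT libraries called higher or lower than the labelled YAP2S OHT Y27 libraries.

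**Figure D1:**
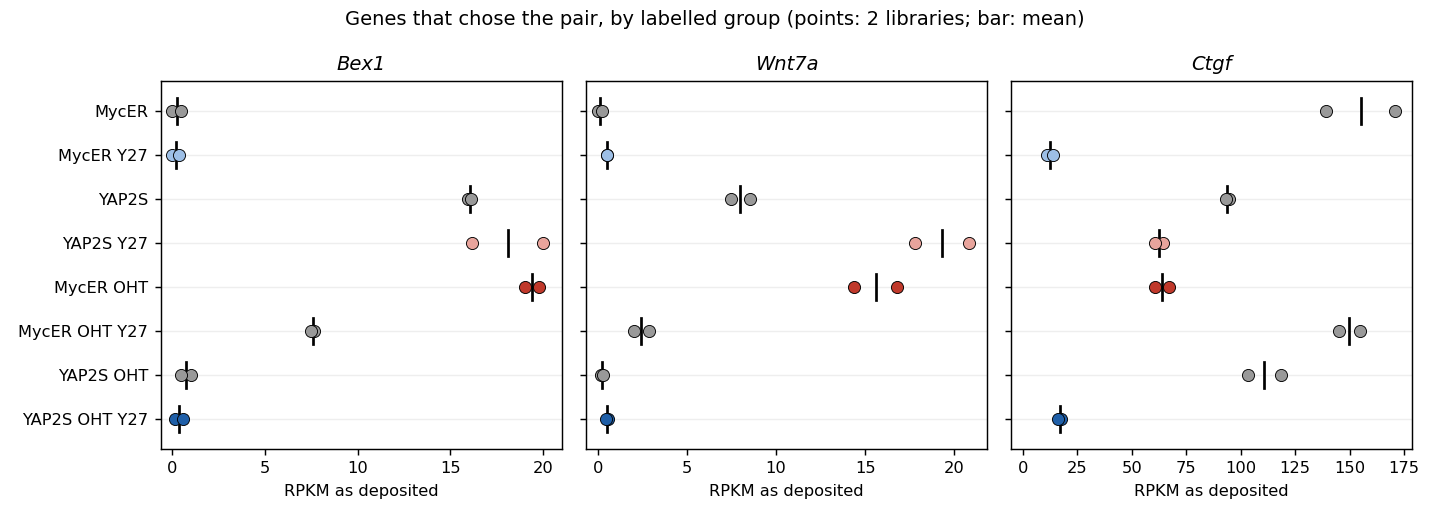
RPKM of Bex1, Wnt7a and Ctgf (x axes) in the 16 libraries by labelled group (rows), 1 point per library and a bar at the mean of 2. For all 3 genes the libraries labelled MycER OHT (red) sit near YAP2S Y27 (pale red), and those labelled YAP2S OHT Y27 (blue) near MycER Y27 (pale blue).

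Whole libraries were compared in the same way. On the log2(RPKM + 1) scale after quantile normalization over the 16 libraries, both MycER OHT libraries correlated most closely, outside their own group, with YAP2S Y27 replicate 2 (r = 0.986 and 0.986 over 13028 genes). Both YAP2S OHT Y27 libraries correlated most closely with MycER Y27 replicate 2 (r = 0.951 and 0.981). For replicate 1 the next library was MycER OHT replicate 1, almost level at r = 0.948. These correlations run across genes, which are not independent, and are a description.

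Depth, as recovered from the values, was 15707305 and 13487189 reads in MycER OHT, 9373663 and 10193504 in YAP2S OHT Y27, 13856653 and 14992735 in YAP2S Y27 and 6287461 and 10197006 in MycER Y27, so that the first group of each comparison was the deeper. The highest RPKM of a library was lower in deeper libraries, at 119 and 131 in MycER OHT and 175 and 165 in YAP2S OHT Y27. For abundant genes the RPKM as deposited and the log2 difference after quantile normalization can therefore differ in sign, as for Wdr74 below. The 2 libraries labelled YAP2S OHT Y27 stood apart from each other. The SD of their log2 difference over genes was 0.470, with 543 genes more than 1 apart, against 0.199 in MycER OHT, 0.173 in YAP2S Y27 and 0.264 in MycER Y27. That difference moved with the GC content of the transcript. With genes split by GC into 10 groups of equal size, the median of replicate 1 minus replicate 2 of YAP2S OHT Y27 was 0.19 in the group richest in GC and -0.36 in the poorest. The part of GC in the results was not tested. Several counts are given without replicate 1 as well, while log2 differences of single genes rest on all libraries.

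**Figure D2:**
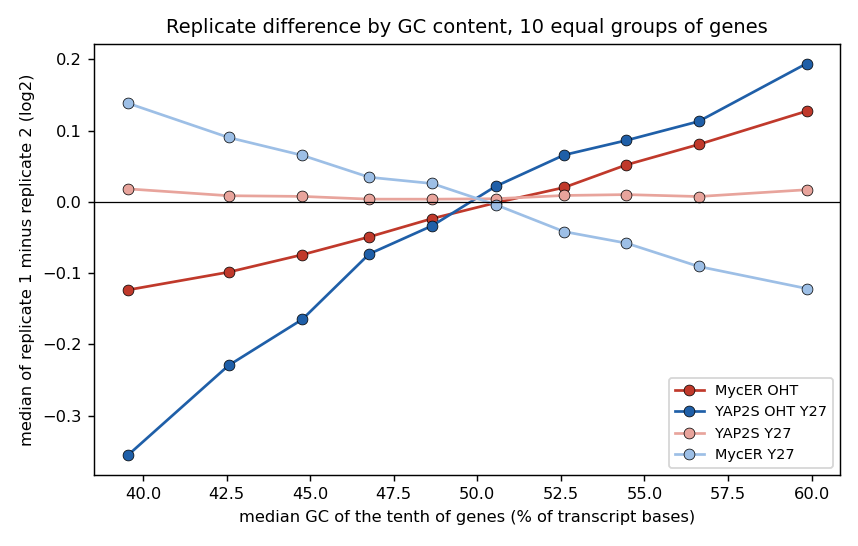
Median log2 difference between the 2 libraries of a group (y axis) in 10 equal groups of genes ordered by GC content of the transcript in percent (x axis), for the 4 groups compared. The line of YAP2S OHT Y27 runs from -0.36 to 0.19, MycER OHT from -0.12 to 0.13, YAP2S Y27 stays within 0.02 of 0 and MycER Y27 runs the other way, from 0.14 to -0.12.

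Of 13028 genes tested, 1081 were higher in MycER OHT (8.3%) and 1138 lower (8.74%) at an adjusted p under 0.05 in limma, by Benjamini-Hochberg over all genes. Such genes are named called below, and counts of called list members in the pair are to be read beside these shares. Since values of this contrast led to the choice of the pair, a call in it serves as a cutoff for description, and no p is printed for single genes. Of the called genes 256 were higher and 157 lower by more than 1 on the log2 scale. The shares were 7.58% higher and 7.31% lower without replicate 1 of YAP2S OHT Y27, and 719 higher and 667 lower genes were called both with and without it. Without replicate 2 of that group 2423 genes were called higher and 2195 lower. Without replicate 1 of MycER OHT 574 and 529 were called, and without its replicate 2, 465 and 383. On the scale as deposited 835 genes were called higher and 453 lower, 64.8% higher, against 48.7% higher after quantile normalization. Genes called higher had a median GC content of 47.4% and genes called lower of 52.9%, against 49.7% over all genes. When replicate 1 of YAP2S OHT Y27 was left out these medians were 48.5% and 50.7%.

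Textbook YAP-TEAD targets were called higher more often than lower in the libraries labelled MycER OHT. Of 21 tested besides Ctgf, 11 were called higher (52.4%), 2 lower (9.5%) and 8 neither, beside 8.3% and 8.74% of all genes. The median log2 difference was 0.58 against -0.01 over all genes. In YAP2S Y27 against MycER Y27 13 were called higher and 2 lower, with a median of 0.69. With only the libraries of the comparison in the fit, 6 of the 21 were called higher in the pair and none lower. Amotl2, an angiomotin that binds YAP, stood at 73.9 and 75.3 RPKM in MycER OHT and at 20.3 and 20.1 in YAP2S OHT Y27 (log2 difference 2.18 ± 0.06, SE). Ankrd1, a muscle ankyrin repeat protein, stood at 64.0 and 69.0 RPKM against 17.04 and 27.56 (1.85 ± 0.14). Cyr61, a matricellular protein, stood at 98.4 and 102 RPKM against 51.7 and 58.2 (1.39 ± 0.06). In each of these genes both libraries of MycER OHT lay above both of YAP2S OHT Y27, an order whose share over all genes was not counted. The same order held for YAP2S Y27 over MycER Y27, with 81.5 and 77.6 against 21.6 and 24.5 RPKM for Amotl2 (2.09 ± 0.06, adjusted p = 1.19e-08 in limma). For Ankrd1 it was 74.1 and 70.4 against 25.9 and 29.9 RPKM (1.65 ± 0.14, adjusted p = 1.39e-05 in limma).

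The other targets called higher were the LIM protein Ajuba (1.17 ± 0.11), the transmembrane regulator Crim1 (0.73 ± 0.09), the kinases Lats2 (1.13 ± 0.06) and Nuak2 (1.65 ± 0.16), the growth factor Tgfb2 (1.44 ± 0.18), tissue factor F3 (0.95 ± 0.17), Rbms3 (0.78 ± 0.08) and Ccdc80 (0.54 ± 0.09). Nuak2 stood at 10.85 and 8.57 RPKM in MycER OHT and at 2.72 and 1.60 in YAP2S OHT Y27. Ccdc80, at 74.3 and 78.9 against 57.9 and 72.1 RPKM, had the smallest difference of the 11. Fjx1, at 26.98 and 21.90 against 34.45 and 32.85 RPKM (-0.55 ± 0.12), and the forkhead gene Foxf2, at 15.4 and 11.7 against 20.7 and 20.6 (-0.72 ± 0.14), were called lower. The receptor kinase Axl, at 60.1 and 63.7 against 75.0 and 69.8 RPKM, was not called (-0.05 ± 0.07). The list thus held calls in both directions, with the lower calls near the share of all genes. With replicate 1 of YAP2S OHT Y27 left out, 13 of the 21 were called higher and 2 lower, with replicate 2 left out 11 and 5, and without replicate 2 of MycER OHT 11 and 0.

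TEAD factors are known to bind GGAATG. The sequences of 300 bases from 250 before to 50 after the start of each gene were taken from RefSeq (GRCm38.p6) for Bex1 and Wnt7a, on which the pair was chosen, 3 well-known targets and Edn1, one of the 12 highest genes, to show where these letters stand. They are printed from 5′ to 3′ on the strand of the gene, with each GGAATG, or CATTCC where it lies on the other strand, in capitals.
Amotl2, chr9:102717554-102717853, plus strand: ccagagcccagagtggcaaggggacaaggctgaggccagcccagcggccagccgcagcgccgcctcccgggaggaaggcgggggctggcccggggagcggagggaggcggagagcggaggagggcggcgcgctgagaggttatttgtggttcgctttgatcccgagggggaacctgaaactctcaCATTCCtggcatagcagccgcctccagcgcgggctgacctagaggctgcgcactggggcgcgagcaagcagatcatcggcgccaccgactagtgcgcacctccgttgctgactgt
Ankrd1, chr19:36119795-36120094, minus strand: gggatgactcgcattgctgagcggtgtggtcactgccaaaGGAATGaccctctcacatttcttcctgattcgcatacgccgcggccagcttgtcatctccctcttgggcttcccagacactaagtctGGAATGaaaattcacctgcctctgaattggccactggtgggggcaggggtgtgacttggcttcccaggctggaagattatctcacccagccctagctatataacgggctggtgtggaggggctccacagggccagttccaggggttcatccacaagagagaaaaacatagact
Cyr61, chr3:145649936-145650235, minus strand: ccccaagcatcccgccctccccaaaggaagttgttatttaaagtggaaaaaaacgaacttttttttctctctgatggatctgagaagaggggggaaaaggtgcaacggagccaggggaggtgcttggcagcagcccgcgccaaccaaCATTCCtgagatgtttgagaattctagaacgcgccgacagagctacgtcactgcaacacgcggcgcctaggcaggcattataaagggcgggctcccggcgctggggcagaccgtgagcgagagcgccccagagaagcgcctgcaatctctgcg
Edn1, chr13:42301226-42301525, plus strand: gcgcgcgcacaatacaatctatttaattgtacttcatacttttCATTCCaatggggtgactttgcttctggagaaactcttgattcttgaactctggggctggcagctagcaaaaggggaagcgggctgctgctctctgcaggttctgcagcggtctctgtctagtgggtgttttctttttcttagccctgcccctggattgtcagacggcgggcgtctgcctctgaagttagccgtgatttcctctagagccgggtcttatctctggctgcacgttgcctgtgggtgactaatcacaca
Bex1, chrX:136215464-136215763, minus strand: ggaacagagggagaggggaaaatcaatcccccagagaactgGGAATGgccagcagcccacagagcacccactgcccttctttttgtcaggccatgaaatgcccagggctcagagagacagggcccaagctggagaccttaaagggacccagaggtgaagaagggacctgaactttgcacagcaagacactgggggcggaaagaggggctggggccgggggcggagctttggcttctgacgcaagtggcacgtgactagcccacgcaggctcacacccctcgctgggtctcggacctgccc
Wnt7a, chr6:91411304-91411603, minus strand: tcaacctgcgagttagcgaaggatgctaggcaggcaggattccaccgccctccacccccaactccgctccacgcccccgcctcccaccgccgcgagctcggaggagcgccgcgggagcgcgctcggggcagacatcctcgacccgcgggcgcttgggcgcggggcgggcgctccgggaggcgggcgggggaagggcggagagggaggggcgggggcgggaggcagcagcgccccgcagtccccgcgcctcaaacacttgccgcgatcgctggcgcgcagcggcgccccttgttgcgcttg

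Ankrd1 held 2 matches, Amotl2, Cyr61, Edn1 and Bex1 1 each, and Wnt7a none. Of all 32851 windows of this length in the table, 14.7% held a match on either strand. The windows of Ptx3, Fgfbp1 and Gadd45g, described below, held none. A match is a description of the letters and no evidence of binding, and a window without one says nothing of TEAD. Ctgf, Foxf1 and Nog were not looked up further.

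Components of the Hippo pathway were called higher in part and never lower. Of 27 tested, 11 were called higher (40.7%, beside 8.3% of all genes), with a median of 0.30. In YAP2S Y27 against MycER Y27 14 were called higher (51.9%, beside 10.6% of all genes), with a median of 0.48. Lats2, a kinase that restrains YAP and is itself a YAP target, stood at 43.85 and 43.80 RPKM in MycER OHT and at 20.5 and 20.3 in YAP2S OHT Y27. Vgll3, a cofactor of TEAD, stood at 52.8 and 55.3 RPKM against 25.0 and 28.1 (1.15 ± 0.06). Amot, an angiomotin, stood at 40.6 and 39.3 RPKM against 22.7 and 24.0 (0.77 ± 0.08). The 3 genes showed no overlap between the groups, and the share of all genes without overlap in the pair was not counted. The kinase Stk4 (0.49 ± 0.10), the upstream regulator Nf2 (0.55 ± 0.10), the scaffolds Wwc1 (0.89 ± 0.28) and Wwc2 (0.73 ± 0.19), Frmd6 (0.55 ± 0.13), Vgll4 (0.65 ± 0.12) and the kinase Taok1 (0.36 ± 0.10) were also called. Yap1 (-0.08 ± 0.16), its paralogue Wwtr1 (0.03 ± 0.09), Tead1 (0.30 ± 0.25) and Lats1 (0.19 ± 0.07) were not. Amotl2 and Lats2 stand in both lists. Without replicate 1 or replicate 2 of MycER OHT, 7 or 6 of the 27 were called, and 3 with only the libraries of the comparison.

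The 12 genes highest in MycER OHT by the rule for named genes were Bex1, Foxf1, Wnt7a, Ptx3, Nog, Gadd45g, Fgfbp1, Plscr2, Tdrp, Edn1, Fam26e and Adm, with log2 differences from 2.79 to 3.76. Several encode secreted proteins. Foxf1, a forkhead transcription factor of mesenchyme, stood at 35.84 and 25.96 RPKM in MycER OHT and at 1.61 and 1.94 in YAP2S OHT Y27 (3.51 ± 0.21). Ptx3, a pentraxin of innate immunity, stood at 13.2 and 12.2 RPKM against 0.499 and 0.204 (3.20 ± 0.16). Nog, an antagonist of BMP ligands, stood at 13.3 and 10.6 RPKM against 0.277 and 0.204 (3.19 ± 0.15). The low values of Ptx3 rest on 9 and 4 reads and those of Nog on 5 and 4, so that these genes were near the limit of detection in YAP2S OHT Y27. A log2 difference of RPKM + 1 understates the change of such genes.

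Gadd45g, a stress sensor that slows the cell cycle, stood at 66.8 and 62.2 RPKM in MycER OHT and at 7.50 and 7.99 in YAP2S OHT Y27 (3.15 ± 0.18). Fgfbp1, a carrier of fibroblast growth factors, stood at 12.1 and 11.1 RPKM against 0.184 and 0.423 (3.11 ± 0.26). Edn1, the vasoconstrictor endothelin 1, stood at 16.3 and 15.0 RPKM against 1.046 and 1.004 (2.93 ± 0.13). Adm, the vasodilator adrenomedullin, stood at 30.6 and 28.2 RPKM against 3.09 and 3.48 (2.79 ± 0.17). Both vasoactive peptides were thus higher in MycER OHT, in both of its libraries. Tdrp stood at 11.1 and 11.4 RPKM against 0.386 and 0.355, Plscr2, a phospholipid scramblase, at 17.6 and 19.6 against 0.619 and 1.86, and Fam26e at 11.2 and 12.3 against 0.896 and 0.494.

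Bex1 and Wnt7a had led to the choice of the pair and are left out of the counts that follow. The other 10 were each higher without overlap in YAP2S Y27 than in MycER Y27, with log2 differences from 2.16 to 3.54. The filter at a mean of 5 RPKM ran over the 8 libraries of both contrasts. Levels in YAP2S Y27 and MycER Y27 thus helped to choose these genes, and the likeness is in part built in. The share of all genes without overlap in that comparison was not counted. In untreated YAP2S against untreated MycER, 9 of the 10 were higher without overlap, where 52.8% of all genes tested were. Gadd45g was the exception, at 88.1 and 92.4 RPKM in YAP2S and 106 and 117 in MycER. Untreated MycER was the shallower group, at 1763224 and 7072622 reads against 14743680 and 13047309 in untreated YAP2S. Its highest RPKM of any gene was 663 and 227, against 124 and 137. The part of depth in the order of abundant genes such as Gadd45g was not tested. Foxf1 stood at 34.8 and 31.8 RPKM in untreated YAP2S and at 8.54 and 7.32 in untreated MycER. Nog stood at 14.8 and 12.5 RPKM in untreated YAP2S and at 0.295 and 0.956 in untreated MycER. The other pair of OHT-treated groups was MycER OHT Y27 against YAP2S OHT, where 5 of the 10 were higher without overlap, against 21.1% of all genes. Foxf1, Ptx3, Gadd45g and Edn1 were lower there without overlap, where 55.3% of all genes were, and Adm overlapped. MycER OHT Y27 held 3628121 and 2619453 reads and YAP2S OHT 12582098 and 9821768, and the part of depth in these shares was not tested. Bex1 there stood at 7.64 and 7.49 RPKM against 1.01 and 0.470.

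The 12 lowest genes were Gjb2, Pde8a, Grem1, Klf12, Mt2, Kcnc2, Cela1, Chst1, Kcnn4, Gpr149, Plcg2 and Dnm1, with log2 differences from -2.14 to -1.65. Gjb2, the gap junction protein connexin 26, stood at 2.44 and 2.19 RPKM in MycER OHT and at 10.65 and 14.93 in YAP2S OHT Y27 (-2.14 ± 0.20). Pde8a, a phosphodiesterase that degrades cyclic AMP, stood at 4.86 and 4.36 RPKM against 24.5 and 18.5 (-2.13 ± 0.15). Grem1, like Nog an antagonist of BMP ligands, stood at 5.44 and 5.34 RPKM against 23.1 and 24.6 (-2.08 ± 0.24). These 2 antagonists of BMP thus differed in opposite directions. Klf12, a repressor of the Krüppel-like family, stood at 4.13 and 3.66 RPKM against 18.8 and 15.1 (-1.99 ± 0.155). Mt2, a metallothionein that binds zinc, stood at 9.96 and 10.1 RPKM against 34.9 and 35.8 (-1.87 ± 0.12). The potassium channel genes Kcnc2, at 1.8 and 1.4 against 7.99 and 7.66 RPKM, and Kcnn4, at 3.22 and 2.72 against 13.2 and 10.1, were both lower.

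All 12 were lower without overlap in YAP2S Y27 than in MycER Y27 too, with log2 differences from -2.45 to -0.95. The smallest of these was Chst1, a sulfotransferase, at 3.91 and 4.52 against 6.97 and 8.46 RPKM. Of the 12, Dnm1 was not called in that comparison (-1.23 ± 0.41, adjusted p = 0.0513 in limma). The same filter over both contrasts chose these genes, so this likeness too is in part built in. The share of all genes lower without overlap in that comparison was not counted. In the pair Chst1 stood at 1.85 and 1.12 RPKM against 10.7 and 4.55 (-1.82 ± 0.26), and Dnm1, a dynamin, at 4.63 and 2.95 against 22.6 and 6.57 (-1.65 ± 0.41). Replicate 1 of YAP2S OHT Y27 held the high value in both genes. In untreated cells 9 of the 12 were lower in YAP2S without overlap, against 19.2% of all genes tested, the others being Kcnn4, Plcg2 and Dnm1. In MycER OHT Y27 against YAP2S OHT all 12 were lower without overlap, where 55.3% of all genes were.

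**Figure D3:**
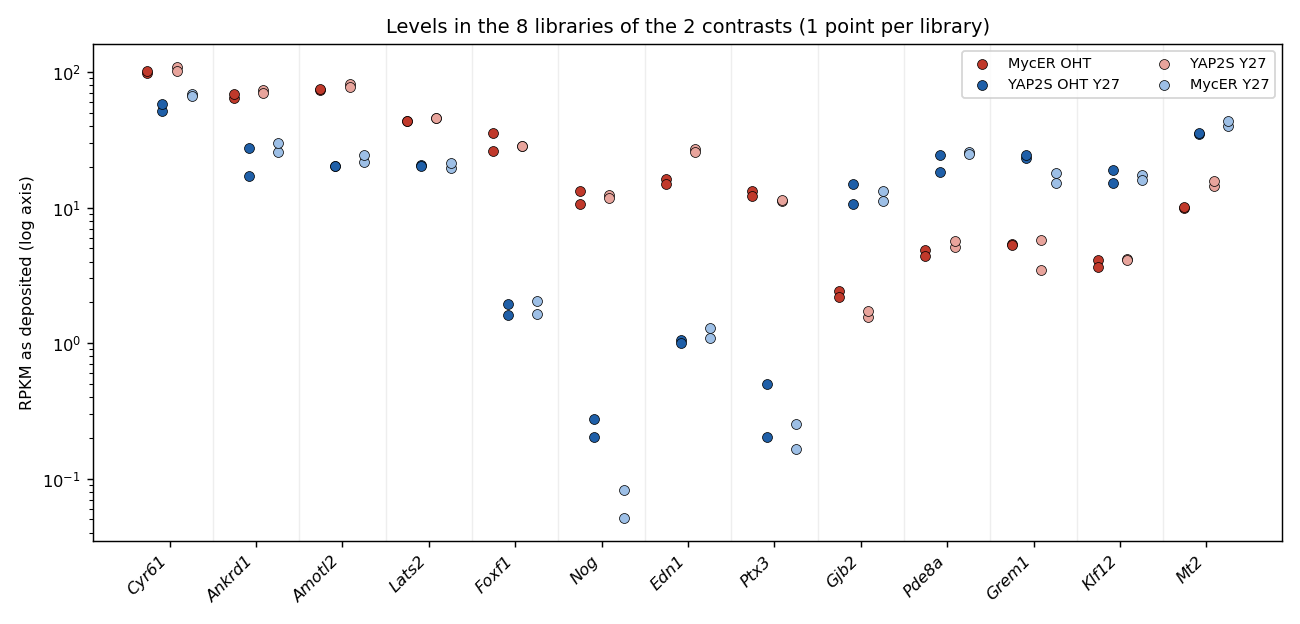
RPKM on a log axis (y) of 13 named genes (x axis) in the 8 libraries of the 2 contrasts, 1 point per library. Cyr61 to Ptx3 are higher and Gjb2 to Mt2 lower in MycER OHT (red) than in YAP2S OHT Y27 (blue), and in YAP2S Y27 (pale red) than in MycER Y27 (pale blue).

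The pair was then compared with YAP2S Y27 against MycER Y27, which shares no library with it. That contrast called 1387 genes higher (10.6%) and 1342 lower (10.3%). Of the 1081 genes called higher in the pair, 827 were called higher there, 76.5% of the first and 59.6% of the second. Of the 1138 called lower, 759 were called lower, 66.7% and 56.6%. None was called in opposite directions, 99.1% of the 2219 genes called in the pair had the same sign in the other contrast, and so did all 413 called with a difference above 1 in size. The share of all genes with the same sign was not counted. The pair was set beside this contrast because marker genes looked alike, so the likeness is a description and no independent finding. Over all genes tested Pearson r of the 2 contrasts was 0.790, and 0.838 without replicate 1 of YAP2S OHT Y27, across genes and as a description. The fit pools the spread of all libraries, and in both contrasts the deeper group is the first.

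**Figure D4:**
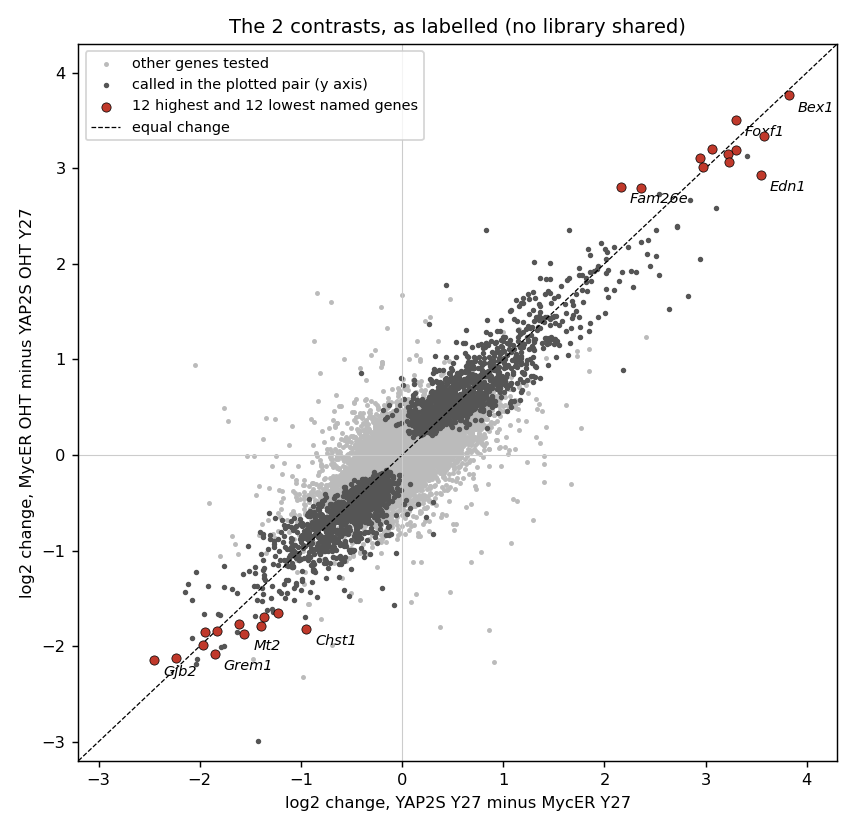
Log2 difference of each of 13028 genes in MycER OHT minus YAP2S OHT Y27 (y axis) against YAP2S Y27 minus MycER Y27 (x axis). Red points are the 12 highest and 12 lowest named genes of the pair, dark grey points other genes called in it, and the dashed line marks equal differences, near which both sets of named genes lie.

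A test of the difference between the 2 contrasts called 0 of 13028 genes (0%) in limma, with a smallest adjusted p of 0.745. At an unadjusted p under 0.05 there were 468. It also called 0 with voom on recovered reads and 0 without replicate 1 of YAP2S OHT Y27. Without replicate 2 it called 846 genes higher and 687 lower. The cause was not tested. A difference that was not called is not shown to be absent. The 3 genes of smallest unadjusted p were Ptchd4 (2.05 in the pair and 2.94 in the other contrast), Ctps (0.22 and 0.76) and Dctd (-0.15 and 0.62). Npr3, a natriuretic peptide receptor (1.53 and 2.64), and Nfe2l3, a transcription factor (0.86 and -0.41), came next. Of these Ptchd4, Npr3 and Nfe2l3 were called in the pair. Ctps, an enzyme of pyrimidine nucleotide synthesis, and the folate enzyme Mthfd1 are given by library, and were picked after their values were seen. Ctps stood at 51.0 and 54.5 RPKM in MycER OHT, 45.77 and 53.004 in YAP2S OHT Y27, 47.9 and 47.6 in YAP2S Y27 and 26.7 and 32.5 in MycER Y27. Mthfd1 stood at 35.8 and 36.0, 31.2 and 32.1, 30.2 and 30.8, and 14.0 and 19.4 RPKM in the same order. In both genes the libraries labelled MycER Y27 were lowest, and the other 3 groups lay closer together.

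Among genes that Myc is known to raise, the lists differed. Of 44 ribosome biogenesis factors tested, 1 was called higher in MycER OHT (Wdr43) and none lower, with a median of 0.11, beside 8.3% of all genes called higher. In YAP2S Y27 against MycER Y27 20 were called higher and none lower, with a median of 0.30. The test of the difference called none of the 44, and 7 had an unadjusted p under 0.05. Heatr1, a factor of ribosomal RNA processing, stood at 47.3 and 49.6 RPKM in MycER OHT and at 48.8 and 48.3 in YAP2S OHT Y27. It stood at 37.2 and 38.2 RPKM in YAP2S Y27 and at 26.2 and 32.3 in MycER Y27. Heatr1 overlapped within the pair, and both of its groups, each labelled with OHT, lay above both groups labelled without it. Wdr74, another factor of ribosome biogenesis, stood at 72.4 and 77.1 RPKM against 82.55 and 85.44, and was not called (0.10 ± 0.06). Of 29 nucleotide synthesis enzymes 3 were called higher (10.3%) and 2 lower (6.9%), near the shares of all genes, and in the other contrast 13 and 3 were. Impdh2, the rate-limiting enzyme of guanine nucleotide synthesis, was not called (0.17 ± 0.08). Without replicate 2 of YAP2S OHT Y27, 7 of the 44 biogenesis factors and 11 of the 29 enzymes were called higher. Myc itself stood at 46.0 and 43.3 RPKM in MycER OHT and at 34.3 and 29.4 in YAP2S OHT Y27 (0.53 ± 0.13), and counts under this name may include reads of the transgene.

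Genes of mitosis and replication were called in 1 direction, higher in MycER OHT. Of 34 genes of G2 and mitosis 22 were called higher (64.7%, beside 8.3% of all genes) and none lower, with a median of 0.63. In YAP2S Y27 over MycER Y27 24 were called higher, with a median of 0.59. Mki67, the proliferation antigen Ki-67, stood at 47.2 and 49.1 RPKM against 20.6 and 30.9 (1.02 ± 0.13). Ect2, a factor of cytokinesis, stood at 30.1 and 31.5 RPKM against 12.4 and 14.4 (1.10 ± 0.10), and the kinesin Kif23 at 23.8 and 24.1 against 9.48 and 11.4 (1.05 ± 0.12). In all 3 the lowest value was that of replicate 1 of YAP2S OHT Y27. With only the libraries of the comparison in the fit 2 of the 34 were called, and 1 of the 45 DNA replication genes that follow. Without that replicate 18 of the 34 were called, with a median of 0.37, and without replicate 2 of MycER OHT 11 were called. In YAP2S Y27 over MycER Y27 23 of 45 DNA replication genes were called higher and none lower, with a median of 0.39. In the pair the median was 0.33, and 0.17 without replicate 1 of YAP2S OHT Y27. There 14 of the 45 were called higher (31.1%) and none lower. Leaving out replicate 1 of YAP2S OHT Y27 made that count 9, without its replicate 2 it was 28, and without either replicate of MycER OHT it was 3. Rrm2, a subunit of ribonucleotide reductase, stood at 39.2 and 40.8 RPKM against 16.9 and 18.4 (1.15 ± 0.12), and Mcm5, of the replicative helicase, at 40.2 and 41.1 against 24.8 and 38.2 (0.42 ± 0.13). The libraries of Rrm2 lay close within each group, while those of Mcm5 in YAP2S OHT Y27 lay far apart.

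Secreted signals differed in both directions. Of 21 cytokines and chemokines tested 9 were called higher (42.9%) and 2 lower (9.5%, near the 8.74% of all genes). Among those higher was Csf1, the macrophage growth factor, at 72.1 and 72.9 against 34.1 and 32.2 RPKM (1.43 ± 0.08). Leaving out replicate 2 of MycER OHT left 5 called higher, and leaving out replicate 1 left 6. Lif, a cytokine of the interleukin 6 family, stood at 5.14 and 3.74 RPKM against 1.29 and 0.558 (1.44 ± 0.20). Cxcl12, a chemokine of stromal cells, stood at 48.2 and 42.2 RPKM against 25.8 and 14.9 (1.22 ± 0.20). The decoy receptor Tnfrsf11b (-0.74 ± 0.23) and the interleukin 33 receptor Il1rl1 (-0.84 ± 0.17) were called lower.

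Of 34 Wnt pathway genes tested besides Wnt7a, 6 were called higher (17.65%) and 9 lower (26.5%), beside 8.3% and 8.74% of all genes. Wnt7b, a close relative of Wnt7a, stood at 5.25 and 4.92 RPKM against 0.217 and 0.378 (2.08 ± 0.14). Wnt10b stood at 8.76 and 7.37 RPKM against 25.3 and 19.1 (-1.496 ± 0.17), and Wnt2 at 0.271 and 0.385 against 3.58 and 2.55 (-1.80 ± 0.29). Ligands of 1 family were thus called in opposite directions. With replicate 1 of YAP2S OHT Y27 left out 5 of the 34 were called lower, and without replicate 1 or 2 of MycER OHT 3 were called lower and 3 or 2 higher. In the TGF-beta and BMP list 8 of 29 were called higher (27.6%) and 5 lower (17.2%). Fst, the activin-binding follistatin, stood at 9.04 and 9.24 RPKM against 1.17 and 1.45 (2.01 ± 0.20), and Inhba, which encodes a subunit of activin, at 69.8 and 60.9 against 34.5 and 24.2 (1.39 ± 0.21). An activin subunit and its antagonist were both higher in MycER OHT. Of 12 genes of the IGF system 3 were called higher (25%) and 6 lower (50%). Igfbp2 stood at 9.03 and 9.09 RPKM against 0.654 and 1.504 (2.16 ± 0.28), while its relative Igfbp5 stood at 7.49 and 6.32 against 23.5 and 14.3 (-1.44 ± 0.24). When replicate 1 of YAP2S OHT Y27 was left out 5 of the 12 were called higher and 4 lower, and without replicate 2 of MycER OHT 2 were called lower.

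Matrix genes were called in both directions. Of 21 collagen chains 4 were called higher (19.05%) and 6 lower (28.6%), beside 8.3% and 8.74% of all genes. Col4a6, of basement membranes, stood at 13.3 and 12.5 RPKM against 2.66 and 3.30 (1.71 ± 0.17), and Col11a1, of cartilage fibrils, at 21.43 and 19.97 against 7.01 and 6.05 (1.42 ± 0.13). Leaving out replicate 1 of YAP2S OHT Y27 left 3 chains called lower, and leaving out replicate 2 of MycER OHT left 1. Of 39 matrix glycoproteins and crosslinkers 7 were called higher and 11 lower, and 7 lower without replicate 2 of MycER OHT. Nid2, a linker of basement membranes, stood at 52.75 and 52.998 RPKM against 23.5 and 20.1 (1.38 ± 0.11), whereas tenascin C, Tnc, stood at 49.1 and 48.5 against 86.4 and 85.8 (-0.78 ± 0.06). Of 26 proteases and inhibitors 4 were called higher and 8 lower, and 5 lower when either replicate of MycER OHT was left out. The aggrecanase Adamts5 stood at 25.4 and 23.3 RPKM against 5.75 and 4.94 (1.92 ± 0.10), and the urokinase gene Plau at 9.76 and 10.6 against 2.34 and 2.40 (1.60 ± 0.25). Serpinb2, an inhibitor of urokinase, stood at 0.567 and 0.730 RPKM against 2.90 and 7.87 (-1.996 ± 0.32). Urokinase and this inhibitor thus differed in opposite directions, with no overlap in either gene, a state whose share over all genes was not counted. Of 39 ephrins, semaphorins and their receptors 8 were called higher and 11 lower, with Epha4, an ephrin receptor, at 12.8 and 13.4 RPKM against 0.811 and 1.06 (2.73 ± 0.16). Of these, 6 were called lower without replicate 1 of YAP2S OHT Y27 or replicate 1 of MycER OHT, 17 without replicate 2 of YAP2S OHT Y27 and 2 without replicate 2 of MycER OHT.

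SRF targets and actin cytoskeleton genes, which respond to actin dynamics, differed by less than 1 on the log2 scale. Of 31 tested 3 were called higher (9.7%) and 5 lower (16.1%), beside 8.3% and 8.74% of all genes. Log2 differences ran from -0.53 to 0.55, with a median of -0.06. As deposited the median was -0.26, against 0.04 over all genes. With reads corrected for duplicates it was -0.24, against 0.002 over all genes. Actg2, a smooth muscle actin, stood at 49.1 and 50.2 RPKM against 71.6 and 72.6 (-0.47 ± 0.06). On the scale as deposited 1 of the 31 was called in each direction, and without replicate 2 of YAP2S OHT Y27 5 were called higher and 9 lower. Without replicate 1 of MycER OHT 2 and 2 were called, and without its replicate 2, 1 and 3. Among 15 genes of ERK feedback 2 were called higher (13.3%) and 5 lower (33.3%). These counts were 0 and 4 without replicate 1 of MycER OHT or of YAP2S OHT Y27, and 0 and 2 without replicate 2 of MycER OHT. The phosphatase gene Dusp10 stood at 17.2 and 17.1 RPKM against 32.2 and 40.6 (-1.17 ± 0.11), and Dusp6 at 48.8 and 50.6 against 70.6 and 79.6 (-0.53 ± 0.08).

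Lysosome and autophagy genes were called lower and never higher in MycER OHT. Of 28 tested 14 were called lower (50%, beside 8.74% of all genes) and none higher, with a median of -0.23. In YAP2S Y27 against MycER Y27 15 were called lower and 1 higher. Ctsb, the protease cathepsin B, stood at 41.2 and 43.6 RPKM against 59.5 and 65.4 (-0.55 ± 0.08). The lysosomal hydrolases Gla (-0.53 ± 0.10) and Neu1 (-0.57 ± 0.11) were called too. These differences were small, and the count depended on the setting, with 4 of the 28 called as deposited, 8 after cyclic loess, 5 with reads corrected for duplicates and 0 with only the libraries of the comparison. Without 1 replicate of MycER OHT, 7 or 5 were called.

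**Figure D5:**
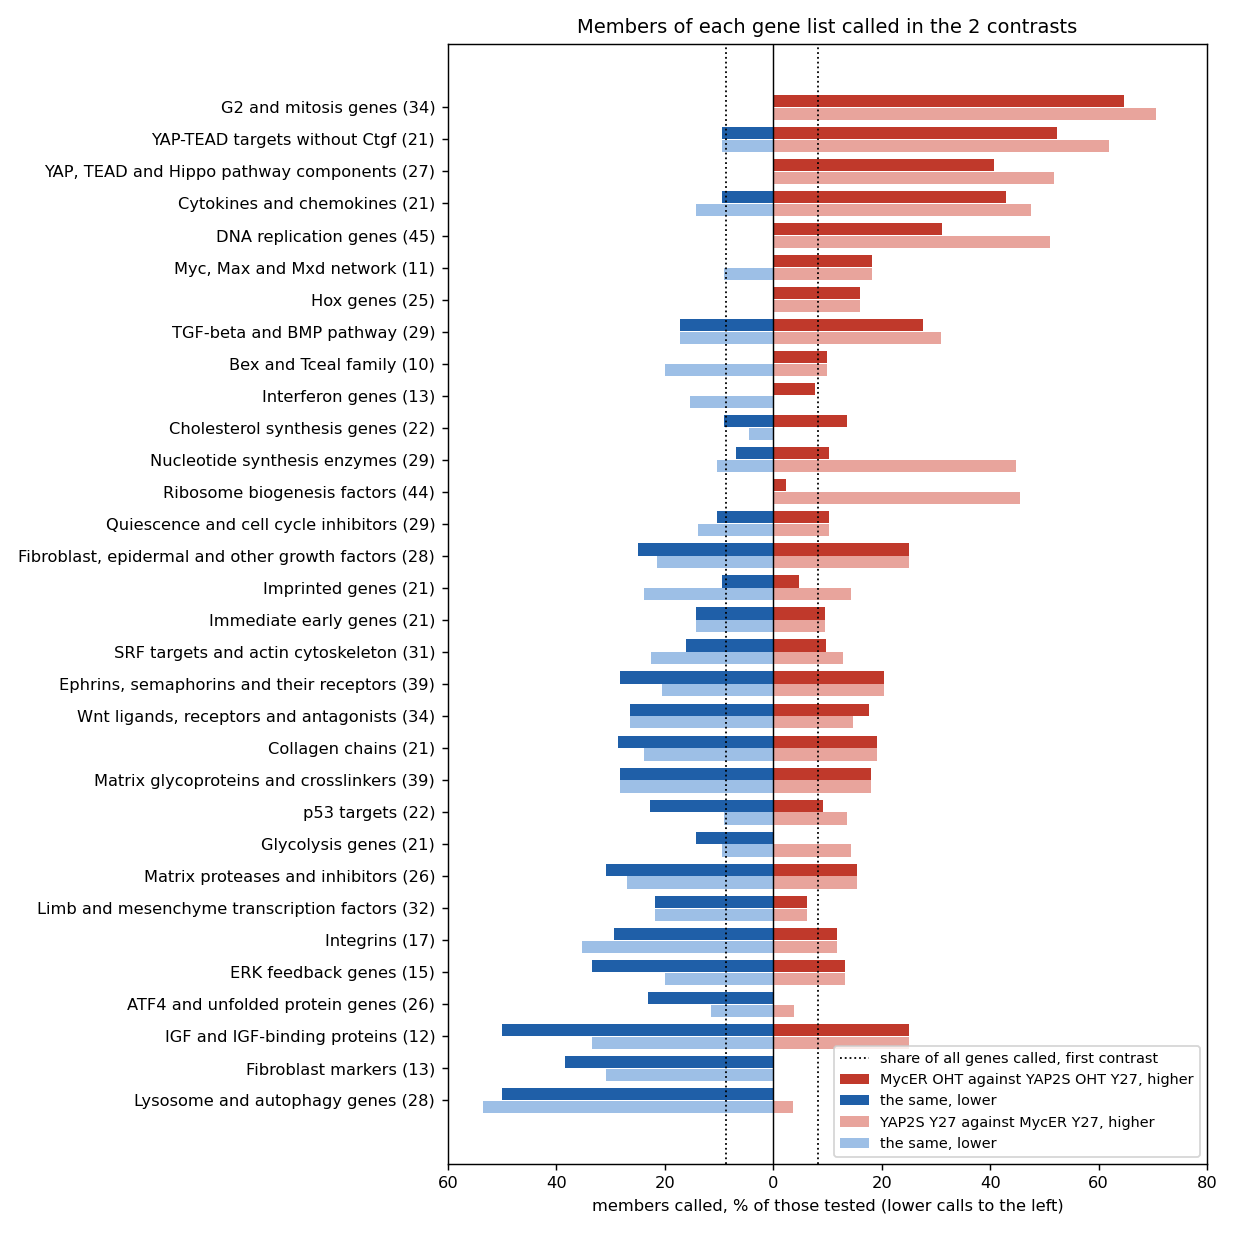
Percent of the tested members of the gene lists shown (rows, number tested in brackets) called higher (to the right) or lower (to the left) in MycER OHT against YAP2S OHT Y27 (dark bars) and in YAP2S Y27 against MycER Y27 (pale bars), with dotted lines at the shares of all genes called in the first, 8.3% higher and 8.74% lower. Among these lists of at least 10 tested members, mitosis genes and YAP-TEAD targets reach furthest to the right in both and lysosome genes furthest to the left in the second, level with the IGF system in the first, and ribosome biogenesis factors and nucleotide enzymes differ most between dark and pale bars.

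The labelled cell type was checked against its markers. Of 17 fibroblast markers Pdgfra, Thy1, Lum and Fap were under 1 RPKM in all 8 libraries, while Col1a1, Col1a2, Col3a1, Fn1 and Vim were abundant. Of the 13 markers tested 5 were called lower in MycER OHT and none higher (median -0.26), and 3 were called lower without replicate 1 of YAP2S OHT Y27. The summed level of the list was 621 to 641 RPKM in MycER OHT and 792 to 910 in YAP2S OHT Y27. In bulk RNA fewer cells of a type and less RNA per cell cannot be told apart. Some defining markers of other types were under 1 RPKM in all 8 libraries. Among these were Epcam and Krt5 (epithelium), Pecam1 and Cdh5 (endothelium), Ptprc and Itgam (leukocytes) and Myod1 and Des (muscle). Sox10 and Rbfox3 (nervous system) and Adipoq and Plin1 (fat) were too. Some other members of these lists were expressed. The neural list summed to 138 to 145 RPKM in MycER OHT and 146 to 170 in YAP2S OHT Y27. Of its 9 members tested Tubb3, Ncam1 and Stmn2 were called lower. The macrophage list summed to 42.0 to 45.3 RPKM against 47.5 to 56.5, with none of 7 called. The muscle list summed to 12.8 to 15.3 RPKM against 8.81 to 9.60, with Tnnt2 called higher of 5 tested. Summed cartilage and bone markers ranged from 126 to 135 RPKM in MycER OHT and from 178 to 204 in YAP2S OHT Y27, with 4 of 8 called lower, 2 without replicate 1 of either group, 6 without replicate 2 of YAP2S OHT Y27 and none without replicate 2 of MycER OHT. Summed epithelial markers ranged from 70.3 to 71.9 RPKM against 46.3 to 55.0, with Krt19 called higher. The part of these markers in the results was not tested.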

How the data were processed

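RNA was sequenced from mouse embryonic fibroblasts in 16 libraries of 8 groups, 2 per group, placed by label alone. Libraries were made from total RNA without poly(A) selection. The deposited values are RPKM computed by the authors for 21671 genes. The submitters' processing notes name TopHat2 2.0.8, SAMtools, featureCounts 1.4.5-p1 and the build mm9. The unit was inferred from the values, and annotation and strand setting are not given in the sources used here. Overlapping or antisense genes therefore cannot be told apart.

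Low RPKM values are whole multiples of 1 read, so reads were recovered (100% of values within 0.01 read of a whole number), as the smallest whole numbers that gave the values of a gene in every library. Their sums, 1763224 to 15707305 per library, are taken as the depth. Values of log2(RPKM + 1), for 13028 genes at 1 RPKM or more in at least 2 libraries, were quantile-normalized over 16 libraries. The fit used limma 3.58.1 (R 4.3.3), with a term for each of the 8 groups, a trend of variance with mean level and 8 degrees of freedom left. Tests were two-sided with Benjamini-Hochberg adjustment at 0.05. Errors are SEs of the fit. The fit was tested on simulated data. Figures and sequences were made in Python 3.11.15.

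The pair, the 41 gene lists and the members were chosen with earlier results of these data known. Named genes were the 12 highest and 12 lowest called genes with a mean of at least 5 RPKM over the 8 libraries and no overlap as deposited, without small RNAs, predicted genes and histones. To these come up to 4 members of each list with the smallest p, and the genes Bex1, Wnt7a, Ctgf, Fgfbp1, Yap1, Myc, Esr1, Cyr61, Ankrd1, Impdh2, Mcm5, Wdr74 and Heatr1. Some genes that the rule picks are left undescribed, and other list members were named after their values were seen. GC content came from the longest GENCODE M21 transcript of each gene (99.4% of genes tested). Alternatives were other scales, filters, pseudocount, no trend, a replicate block, voom, fewer libraries and, added after seeing the data, reads corrected for duplicates. A few list members and 1 list are not reported here.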

Additional observations from a re-analysis of the deposited data

Results flagged for a closer look

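Cd68, a lysosomal glycoprotein of macrophages that stands in a marker list, went opposite ways in the 2 contrasts. In MycER OHT it stood at 6.82 and 6.62 RPKM and in YAP2S OHT Y27 at 3.81 and 6.23 (log2 difference 0.29 ± 0.20). In YAP2S Y27 it stood at 4.29 and 4.03 RPKM and in MycER Y27 at 5.99 and 6.91 (-0.73 ± 0.20). Neither contrast had overlapping libraries, but the test of the difference between them did not pass (1.01, adjusted p = 0.887 in limma over all genes tested). It was the 1 gene of 182 named that did so.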

How the results depend on the processing

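Of 182 named genes 149 were called in MycER OHT against YAP2S OHT Y27. Of these, 103 were called in the same direction under every alternative that kept all libraries, and 52 under every alternative. The direction turned for Insig1 (0.25 to -0.0346 as deposited and -0.0051 with voom) and for Sc5d (0.25 to -0.0016 as deposited), both abundant genes of cholesterol synthesis. The count of 2219 called genes became 1288 as deposited and 194 with only the libraries of the comparison, and the causes were not tested. It ranged from 848 to 4618 when 1 library was left out. The count of 2729 in YAP2S Y27 against MycER Y27 became 4201 with only its own libraries and ranged from 981 to 4057 without 1 library. The test of the difference called 1 gene with no filter on low values and 0 to 1533 without 1 library. With 1 library left out of a group, the other is taken to vary like the remaining groups.

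The labels do not say that replicate numbers pair samples. The difference of replicate 1 from 2 correlated at 0.42 between MycER OHT and YAP2S OHT Y27 and at 0.12 between YAP2S Y27 and MycER Y27, but was as low as -0.30 between other groups, and the numbers were not taken as pairs. A replicate block gave 2067 calls in the pair (1030 higher, 1037 lower), 2523 in the other contrast and 0 for the difference. Depth limits genes at a few reads, as for Bex1 in YAP2S OHT Y27, and p-values cover only the spread between these libraries.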
